A study of Mus musculus with 2 samples.

Results

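The microRNA (miRNA) genes Mir335, Mir483 and Mir675 lie within the imprinted genes Mest, Igf2 and H19, and their levels in the embryonic mouse kidney are described here. They were selected by their host genes, with their measured levels already known, and are 3 of the 1973 miRNA genes in the files. All 3 had reads in both libraries. MicroRNA sequencing of RNA under 30 nt was carried out on whole kidneys of healthy B6NCrl embryos at 15.5 days of development, with no treatment or genetic change named. The samples form 1 group of 2 biological replicates. Replicate 2 was made from the pooled kidneys of 62 male and female embryos, and replicate 1 from those of 78. No other tissue, age or parental cross was measured, so the data give levels and the spread between pools, and no allele could be told from the other.

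Imprinted genes are expressed mainly from the copy inherited from one parent, and many of them act on fetal growth. Mest, which codes for a protein of the hydrolase family and marks embryonic mesoderm, and Igf2, which codes for the growth factor IGF2, are expressed from the paternal copy. H19 makes a long noncoding RNA from the maternal copy and shares enhancers and an imprinting control region with Igf2. A miRNA is cut from a folded hairpin in a longer transcript, first by Drosha in the nucleus and then by Dicer, and a hairpin can give a mature strand from either arm (5p and 3p). Bases 2 to 8 of the mature strand, the seed, carry most of its pairing with target messenger RNAs. In the kidney, gain of expression of IGF2 through loss of imprinting is known from human Wilms tumour, a tumour of nephron progenitors.

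The hairpins are shown because each count below is for the whole hairpin, in which 1 or both of the arms may have been sequenced. Capitals mark the annotated mature arms, the 5p arm first, and the sequences are from RefSeq on GRCm38.p6, written 5′ to 3′. All 3 genes were matched by symbol.
Mir335 hairpin: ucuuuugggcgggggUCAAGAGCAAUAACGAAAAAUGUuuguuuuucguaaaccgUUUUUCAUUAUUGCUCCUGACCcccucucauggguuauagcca
Mir483 hairpin: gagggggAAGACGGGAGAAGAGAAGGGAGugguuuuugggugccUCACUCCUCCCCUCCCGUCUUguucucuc
Mir675 hairpin: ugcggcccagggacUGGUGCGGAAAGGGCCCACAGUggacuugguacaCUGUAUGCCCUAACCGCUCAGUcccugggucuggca

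The mature strands follow with the seed in capitals, since the seeds show whether the 3 genes, or any other gene, could pair with the same seed sites. Strands with different seeds can still have targets in common.
miR-335-5p: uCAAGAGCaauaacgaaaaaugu
miR-335-3p: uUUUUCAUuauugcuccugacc
miR-483-5p: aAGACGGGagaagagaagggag
miR-483-3p: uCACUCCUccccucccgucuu
miR-675-5p: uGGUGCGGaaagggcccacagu
miR-675-3p: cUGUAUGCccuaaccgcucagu
The 6 arms had 6 different seeds. None of the other genes in a RefSeq table of 1738 mature sequences from 1058 genes had any of these seeds. Over bases 2 to 7, miR-335-3p shared its sequence with miR-6986-3p, miR-335-5p with miR-7646-5p and miR-483-3p with miR-3110-3p. These were looked up after the values were seen. Mir6986 had 6 reads in replicate 2 and 1 in replicate 1, Mir3110 had 2 reads in replicate 2 and 4 in replicate 1, and Mir7646 was not analysed here. Mir6986 and Mir3110, the partial matches in this table that were counted here, thus had few reads. Genes outside the RefSeq table were not compared.

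Positions are given on mm10 (GRCm38), with GENCODE M21 names. Mir335 (ENSMUSG00000065501) lies on the plus strand of chromosome 6, from 30741299 to 30741396. The hairpin is within 7 of the 11 annotated Mest transcripts and intronic in each of these 7, at 517 to 17752 nt from their starts. Mir483 (ENSMUSG00000070140) lies on the minus strand of chromosome 7, from 142654924 to 142654996. It is intronic in the 7 of 9 Igf2 transcripts that span it, at 1022 to 11820 nt from their starts. Mir675 (ENSMUSG00000076275), on the same strand of chromosome 7 from 142577064 to 142577147, is 77.8 kb from Mir483. It is spanned by 4 of 7 H19 transcripts and overlaps an exon in 3 of these 4, at 239 to 996 nt from the transcript starts. Mir675 is therefore the exonic member of the set, and no gene is annotated on the opposite strand across any of the 3 hairpins.

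**Figure D1:**
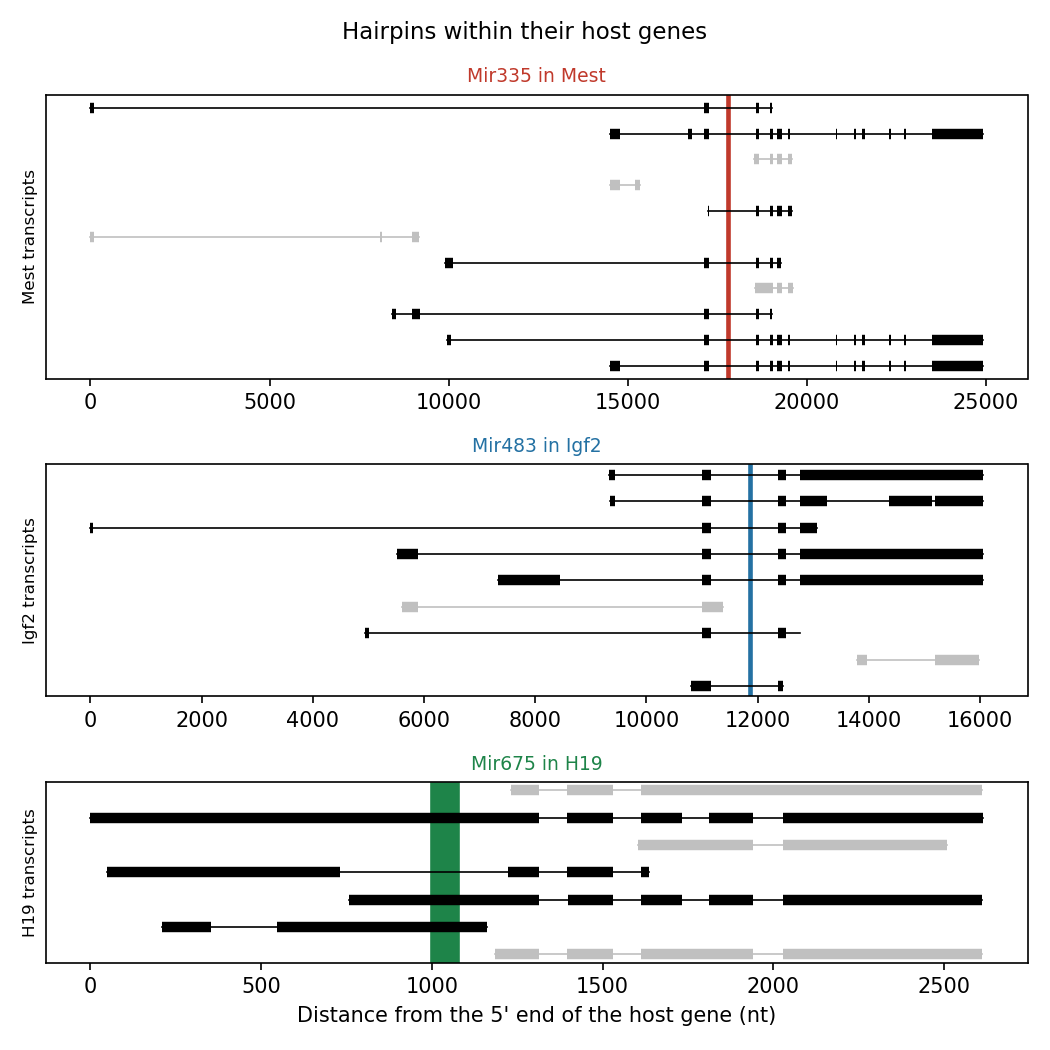
Annotated transcripts of Mest, Igf2 and H19 (GENCODE M21) by distance from the 5′ end of the host gene in nt, with exons as thick bars. Black transcripts span the hairpin, grey ones do not, and the coloured band is the hairpin, which falls in introns of Mest and Igf2 and in an exon of 3 H19 transcripts.

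The 3 genes differed widely in level, from the miRNA gene at rank 2 to one near the median of the detected genes. Levels are own-strand read counts divided by the library's sum over all miRNA genes, 5863293 reads in replicate 2 and 7434182 in replicate 1, and given as percent or as CPM (counts scaled to a total of 1000000). The limit that a count of 0 allows was 0.512 CPM in replicate 2 and 0.404 CPM in replicate 1, so none of the 3 was near the detection limit. Intervals are 95% exact (Clopper-Pearson) binomial intervals, which cover counting error only. Since the members were chosen with these levels known, the levels are a description and were not tested.

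Mir335, known in human breast cancer as a suppressor of metastasis, had 383798 reads in replicate 2 and 506694 reads in replicate 1. This was 6.55% (interval 6.53% to 6.57%) of the counts in replicate 2 and 6.82% (6.80% to 6.83%) in replicate 1, with a mean of 6.68% ± 0.191 (SD, n = 2). It stood at rank 2 in both libraries and had the highest level of the 170 detected intronic miRNA genes, of whose counts it made up 15.9%. Reads listed as matching several loci are outside these totals, at 0.55 per own-strand read in replicate 2 and 0.525 in replicate 1. Genes that share sequence can thus be counted too low, so this rank and these shares hold among the counted reads only. Mir10a, a Hox-cluster miRNA, was above Mir335 at 15.4% ± 1.87, and the Hox-cluster miRNA Mir10b was next below at 6.16% ± 0.529 (SD, n = 2 each). Mir10b stood at 5.78% in replicate 2 and 6.53% in replicate 1, so Mir335 had 1.13 times its level in replicate 2 and 1.04 times its level in replicate 1. The mean levels of Mir335 and Mir10b differed by less than the SD of Mir10b. Per base of annotated hairpin the order turned, with 682 CPM per base for Mir335 and 906 for Mir10b, and Mir335 then stood at rank 3. As only RNA under 30 nt was sequenced, counts need not grow with hairpin length. Values per hairpin base are therefore given as another scaling and not as a better measure of level.

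Mir483, whose 3p strand is known to repress the pro-apoptotic gene BBC3 in human tumour cells, had 7291 reads in replicate 2 and 6955 reads in replicate 1. This gave 1243 CPM (interval 1215 to 1272) in replicate 2 and 936 CPM (914 to 958) in replicate 1, with a mean of 1090 ± 218 CPM (SD, n = 2). Replicate 2 held more Mir483 reads although it was the smaller library, and the intervals did not overlap. By mean it ranked 84th, between Mir532 at 1110 ± 33.9 CPM and Mir503 at 920 ± 109 CPM. Both neighbours lay within 1 SD of Mir483 by mean. Mir532 was below Mir483 in replicate 2 (1130 CPM) and above it in replicate 1 (1090 CPM), so their order is not settled. Mir503 was below Mir483 in both, at 997 CPM in replicate 2 and 842 CPM in replicate 1. Mir483 stood 39th among the 170 detected intronic genes.

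Mir675, which in mouse placenta is known to restrain growth and to repress Igf1r, had 405 reads in replicate 2 and 533 reads in replicate 1. This gave 69.1 CPM (interval 62.5 to 76.1) in replicate 2 and 71.7 CPM (65.7 to 78.1) in replicate 1, with a mean of 70.4 ± 1.85 CPM (SD, n = 2). The intervals overlapped, and no difference between the pools was detectable at this depth with this scaling. Mir675 ranked 196th, next to Mir667 at 72.8 ± 1.35 CPM and Mir3074-1 at 69.4 ± 4.26 CPM, and its interval held both of their means. The count of Mir3074-1 is uncertain, since its hairpin shares a stretch with another miRNA gene. Mir675 was close to the median of 68.8 CPM over the 394 miRNA genes that reached 1 CPM in both libraries, and it stood 50th of the 108 detected exonic genes.

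**Figure D2:**
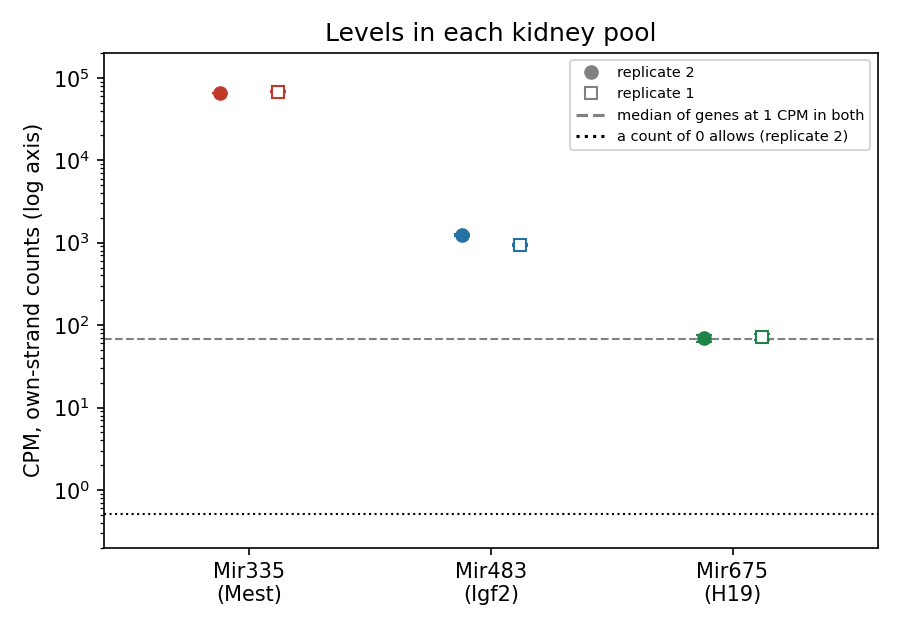
Own-strand CPM (log axis) of Mir335, Mir483 and Mir675 in replicate 2 (filled circles) and replicate 1 (open squares), with 95% exact binomial intervals. Mir335 is near 66800 CPM, Mir483 near 1090 CPM and Mir675 near 70.4 CPM, close to the dashed median of detected genes, and all are far above the dotted limit that a count of 0 allows.

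The order Mir335, Mir483, Mir675 held in both pools, with gaps far larger than the spread between them. Mir335 exceeded Mir483 by 52.6 times (interval 51.4 to 53.9) in replicate 2 and by 72.9 times (71.1 to 74.6) in replicate 1. Per hairpin base these ratios were 39.2 and 54.3. Mir483, from the paternally expressed Igf2, exceeded Mir675, from the maternally expressed H19, by 18.0 times (16.3 to 19.9) in replicate 2 and by 13.0 times (11.9 to 14.3) in replicate 1. Per hairpin base the ratios were 20.7 and 15.0. Mir335 exceeded Mir675 by 948 times (860 to 1050) in replicate 2 and by 951 times (873 to 1040) in replicate 1. The Mir335 to Mir675 ratio was thus alike in the pools, and the other 2 ratios moved with Mir483. These are ratios of reads, and how evenly the different sequences were recovered in the libraries was not measured. Levels of the host transcripts were not measured either. Differences in transcription, in hairpin processing and in recovery therefore cannot be told apart.

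**Figure D3:**
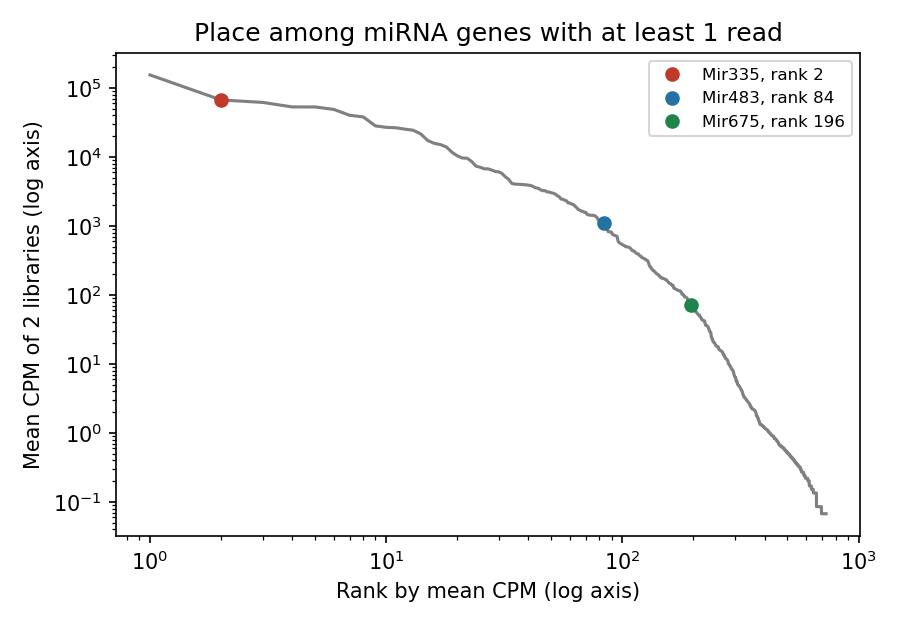
Mean CPM of the libraries against rank, both on log axes, for every miRNA gene with at least 1 read. Mir335 is at rank 2 near the top of the curve, Mir483 at rank 84 and Mir675 at rank 196, where the curve begins to drop steeply.

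Between the pools, Mir483 was the member that differed by at least 25%. Its level in replicate 2 was 1.33 times that in replicate 1 (log2 ratio 0.41, interval 0.36 to 0.46). Mir335 had a ratio of 0.960 (log2 -0.06, interval -0.06 to -0.05) and Mir675 a ratio of 0.963 (log2 -0.05, interval -0.24 to 0.14). The interval of Mir335 lay wholly on the lower side, a small difference beyond counting error. With 1 library on each side, no test of the pools was made, and a level at least 25% higher in one library than in the other was taken as a difference. By this rule 1 of the 3 members differed, Mir483, against 37.1% of the 264 genes whose count averaged 100 or more, 29.9% higher and 7.20% lower in replicate 2. The count of members is close to this background, and nothing particular to them is read from it. Of the 264 genes, 76.5% had a lower ratio than Mir483, 28.0% a lower one than Mir335 and 28.8% a lower one than Mir675. The median gene had a ratio of 1.09, with quartiles of 0.937 and 1.29, so Mir335 and Mir675 lay within the middle part of the genes and Mir483 just above it.

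Among the 20 genes nearest to each member in mean level, 4 had a higher ratio than Mir483 and 16 a lower one. The same count was 14 higher and 6 lower for Mir335, and 17 higher and 3 lower for Mir675. The call for Mir483 rests on the scaling: with TMM totals its ratio was 1.22 and with DESeq2 size factors 1.19, since these scalings moved every log2 ratio by -0.13 and -0.16.

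**Figure D4:**
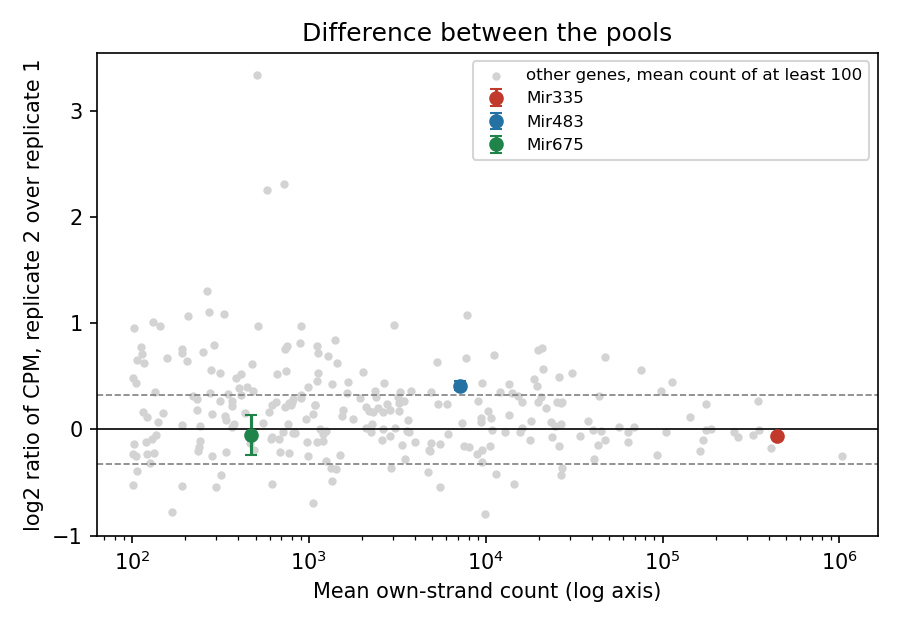
Log2 ratio of CPM, replicate 2 over replicate 1, against the mean own-strand count (log axis) for the 264 genes whose count averaged 100 or more. Dashed lines mark a level 25% higher in either library, and bars give 95% exact binomial intervals of the members. Mir483, at 0.41, lies above the upper line, and Mir335 and Mir675, at -0.06 and -0.05, lie near 0.

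A list of miRNAs found in kidney was looked at, made up of posterior Hox, epithelial, nephron and endothelial genes. The Hox and endothelial genes, which lead its sum, are not particular to kidney, so the sum does not test the tissue label. All 15 of these genes were detected, with a summed level of 33.1% in replicate 2 and 36.1% in replicate 1, led by Mir10a, Mir10b and the endothelial Mir126a at 4.88% ± 0.135 (SD, n = 2). Markers of other organs that express Igf2 and H19 in the embryo were present, in lists of fewer genes with lower sums. Gene by gene the levels overlapped. The kidney list ranged from 53.4 CPM (Mir30c-2) to 154000 CPM (Mir10a) by mean, with the muscle gene Mir206 at 809 CPM and Mir122 at 474 CPM. Mir122, the 1 hepatocyte marker, stood at 628 CPM in replicate 2 and 319 CPM in replicate 1, a ratio of 1.97. The striated muscle list, 5 of 8 measured members detected, had a summed level of 700 CPM in replicate 2 and 1030 CPM in replicate 1, a ratio of 0.682, and most of it was Mir206 at 659 and 959 CPM. Its members Mir1a-1, Mir133a-1 and Mir133a-2 were at 0, and these share sequence with other genes. The part of these tissues in the Mir483 difference was not tested. As these are bulk pools, more cells of a type and more RNA per cell cannot be told apart.

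Markers of other cell types were compared in the same way. Mir375, the 1 endocrine marker, stood at 1680 CPM in replicate 2 and 1240 CPM in replicate 1, and both erythroid markers, Mir451a and Mir144, were detected, with a sum of 0.0466% in replicate 2 and 0.0339% in replicate 1. The 3 leukocyte markers analysed, Mir223, Mir155 and Mir150, were detected, with a sum of 700 CPM in replicate 2 and 619 CPM in replicate 1. Of the 5 neural markers analysed only Mir9-3 was detected, at 1.02 CPM in replicate 2 and 2.56 CPM in replicate 1. Mir124a-1, Mir124a-2, Mir124a-3 and Mir9-2 were at 0. All 5 share sequence with other genes, so this list does not show how much neural RNA the pools held or how they differed in it. Within the kidney list, the 6 miR-30 genes, known from nephron epithelium, had ratios between 0.699 (Mir30b) and 1.47 (Mir30a), and the 5 genes of the epithelial miR-200 family had ratios between 0.741 (Mir200b) and 1.04 (Mir200c). All miR-30 genes but Mir30b were higher in replicate 2. All miR-200 genes but Mir200c were lower in replicate 2, and Mir200c was below the median gene at 1.09. The part of these compartments in the Mir483 difference was not tested either.

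Beside lists of miRNAs of other imprinted domains, Mir335 alone had more counts than each list summed. The Dlk1-Dio3 list, a maternally expressed cluster on chromosome 12, summed to 3.11% in replicate 2 and 2.38% in replicate 1 over 45 measured members of 51. Mir335 stood at 2.11 times that sum in replicate 2 and 2.86 times in replicate 1. Another 6 listed members were not analysed here, so the sum can be too low. The most abundant member, Mir411, reached 4740 ± 1220 CPM, ahead of Mir487b at 3710 ± 53.7 CPM and Mir127, which targets Rtl1 transcripts of the opposite strand, at 3240 ± 885 CPM (SD, n = 2 each). The counts of Mir411 and Mir487b are uncertain because of sequence they share with other miRNA genes. Mir483 was above 32 of the 41 detected members of this list, and Mir675 above 14 of them. In the same comparison of pools 22 of the 39 members with enough counts were at least 25% higher in replicate 2 and 0 were at least 25% higher in replicate 1, with a median ratio of 1.28. Over all 264 genes the counts were 79 (29.9%) and 19 (7.20%), with a median of 1.09. With TMM totals the list had 14 such genes higher in replicate 2 and 1 higher in replicate 1, against 54 and 41 over all 264 genes, and with DESeq2 size factors 14 and 2, against 52 and 46. The ratio of Mir483, 1.33, was near the median of this list, and those of Mir335 and Mir675, 0.960 and 0.963, were below it.

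In the Gnas domain, Mir296 stood at 3880 ± 300.0 CPM and Mir298 at 2140 ± 356 CPM (SD, n = 2 each), both above Mir483 and Mir675. Mir296 had 3670 CPM in replicate 2 and 4090 CPM in replicate 1, and Mir298 had 2390 CPM in replicate 2 and 1890 CPM in replicate 1. Mir335 was 10.8 times their sum in replicate 2 and 11.4 times in replicate 1. The repeated families of the Sfmbt2 intron, a paternally expressed rodent cluster, were listed by gene name and not by position. This list can thus hold genes outside the intron, and it summed to 0.540% in replicate 2 and 0.513% in replicate 1. The highest were Mir467d (1570 ± 133 CPM), Mir467e (1430 ± 77.8 CPM) and Mir467c (1330 ± 151 CPM, SD, n = 2 each). This sum is uncertain and can be too low, as 67 of the 69 genes have a stretch in common with another miRNA gene. Of the 69, 46 had 0 own-strand reads in both libraries. Mir335 was 12.1 times the sum in replicate 2 and 13.3 times in replicate 1, and Mir483 was above 8 of the 11 detected members.

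The 3 hairpins differed in base composition and computed folding as well as in level. Mir335 was 98 nt long with 42.9% G and C, and 19.5% of 343 detected hairpins had a lower share. These are the 343 of the 394 detected genes whose hairpin was found by symbol in the RefSeq table. Mir483 was 73 nt long with 58.9% G and C, and 80.8% of those hairpins were lower. Its 5p arm holds 95.5% purines and its 3p arm 9.52%, as the sequences printed above show. Mir675 was 84 nt long with 63.1% G and C, and 89.8% were lower. The predicted minimum free energy per 100 nt, a measure of how firmly a hairpin pairs, was -45.2 kcal/mol for Mir335, -46.3 for Mir483 and -66.7 for Mir675, against a median of -43.6. Mir675, the least abundant member, thus had a more stable predicted fold than 97.4% of these 343 hairpins, while Mir335 and Mir483 lay near the median. Between the arms, the loop was 17 nt in Mir335, 15 nt in Mir483 and 12 nt in Mir675. The part of base composition or folding in these levels was not tested.

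**Figure D5:**
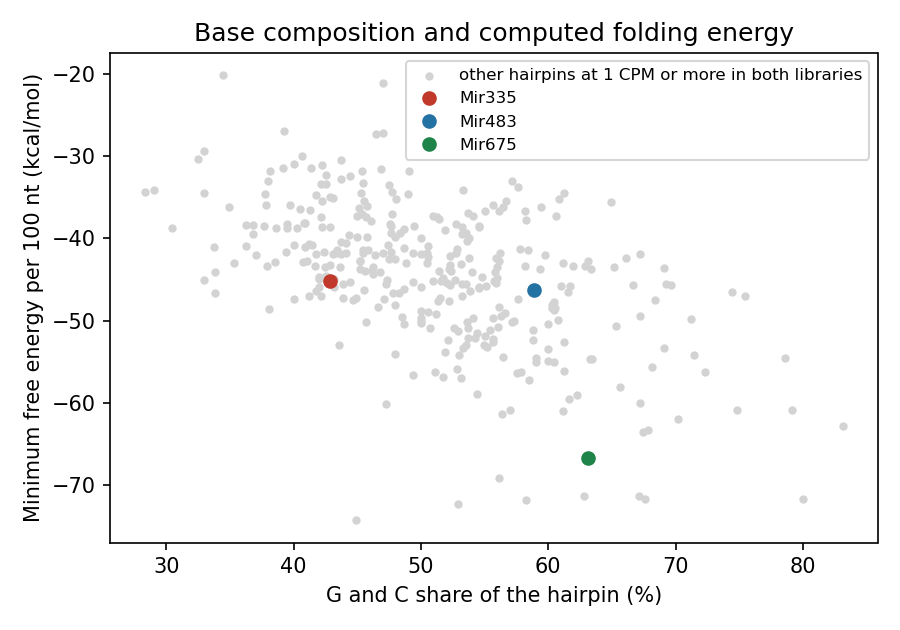
Predicted minimum free energy per 100 nt (kcal/mol) against the G and C share (%) of the 343 hairpins with a RefSeq sequence among the 394 genes detected in both libraries. Mir675, at -66.7 kcal/mol and 63.1%, lies at the lower edge of the cloud, and Mir335 and Mir483, at -45.2 and -46.3, lie within it.

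Reads opposite to the 3 genes, and sequence they share with others, were looked at because both can change a count. On the opposite strand Mir335 had 1 read in replicate 2 and 3 reads in replicate 1, and Mir483 and Mir675 had 0 in both. No stretch of 20 nt of any of the 3 hairpins occurs in a miRNA gene elsewhere in GENCODE M21, whereas 929 of 1894 named genes share such a stretch. Reads listed as matching several loci, 26.6% of reads in replicate 2 and 27.1% in replicate 1, have a line of their own in the deposited files, and how they were defined is not given in the sources used here. Loci outside miRNA genes were not analysed here, and whether reads of the 3 genes were among these was not tested.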

How the data were processed

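The deposited files hold raw read counts per miRNA gene for each library, in columns for both strands, the gene's own strand and the opposite strand. Per the deposited notes, the authors counted reads aligned to assembly mm10 with annotation M4, with an aligner and counter not given in the sources used here. Unmapped, multiply matching and non-gene reads were left out of library totals. In replicate 2 and replicate 1 the unmapped reads were 19.7% and 17.7%, and the non-gene reads 4.05% and 2.57%. Own-strand counts were divided by their sum (5863293 and 7434182), which sets the precision.

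The members and lists were chosen with earlier results of these data known. Genes named beside the members are the nearest by mean level above and below, the 3 highest of each list, genes with a shared seed, and the markers. GENCODE M21 named 1894 of 1973 genes by identifier, and the unnamed held 5 reads. The single group left no contrast, and no test was made. Alternatives were TMM totals (edgeR 4.0.16), DESeq2 1.42.0 size factors (R 4.3.3), both strands, other totals, other count minimums and each replicate left out. RNAfold 2.7.2 gave folding energies. Other steps used Python 3.11.15, scipy 1.17.1, pandas 2.3.3, numpy 2.4.6 and matplotlib 3.10.9.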

Additional observations from a re-analysis of the deposited data

How the results depend on the processing

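No paired analysis was possible because the libraries form 1 group. Of 53 alternatives, 35 left the value within the spread between libraries or the counting interval, or, for a count of genes, within 1.5 times. The 35 include the settings with 1 replicate left out. With 2 libraries these give the value of the other library, which always lies within the SD, so they show nothing about stability. With all reads of the file as the total, the levels were 33426 CPM for Mir335, 542 for Mir483 and 35.2 for Mir675, a change of denominator that leaves their order as it was. Without Mir10a in the total, Mir335 stood at 79012 CPM and Mir675 at 83.2 CPM, and without genes that share sequence at 71808 and 75.7 CPM. The ratio of replicate 2 to replicate 1 for Mir335 was 0.879 with TMM, 0.860 with DESeq2 size factors, 0.903 over all reads and 0.931 without Mir10a. For Mir483 it was 1.22 with TMM, 1.19 with DESeq2 and 1.249 over all reads, so the call at 25% was lost with these 3 totals. It was 1.37 without the genes that differ between pools, a setting chosen after seeing the data. For Mir675 it stayed between 0.862 and 0.962. Per hairpin base, also chosen after seeing the data, Mir335 exceeded Mir483 by 46.7 times in place of 62.7. Genes at least 25% higher in either library numbered 98, and 172 with a mean count of at least 10 and 49 with at least 1000, where fewer or more genes were compared. Of the 98, 80.6% were higher in replicate 2, against 56.8% with TMM and 53.1% with DESeq2. With 1 replicate left out, Mir335 ranged from 65458 to 68157 CPM, Mir483 from 936 to 1243.5 CPM and Mir675 from 69.1 to 71.7 CPM. The ratio of Mir335 to Mir483 then ranged from 52.6 to 72.9 and that of Mir483 to Mir675 from 13.0 to 18.0. With 2 libraries, an SD is itself a rough estimate, and only Mir675, with 405 and 533 reads, was limited by depth.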
